A study of Mus musculus with 12 samples.

Results

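A group of 10 genes associated with the projection neurons of the olfactory bulb was followed across wild-type, heterozygous and homozygous *Slc6a20a* mutant mice: *Eomes*, *Cdhr1*, *Tbx21*, *Doc2g*, *Frmd7*, *Lgr6*, *Ms4a15*, *Omp*, *Uncx* and *Shisa3*. They were given as a list of symbols, chosen with the difference between homozygous and wild-type mice already known, and all 10 of 10 were found among the 19775 genes measured. RNA had been sequenced from the whole brain of 12 adult male C57BL/6N mice at about postnatal day 120, with 4 mice of each genotype from heterozygous parents: WT, HT (*Slc6a20a*+/–) and HM (*Slc6a20a*–/–). The mutation removes exon 3 of *Slc6a20a*, which encodes a proline and glycine transporter, and it is inherited through the germline. Mice of all 3 genotypes were otherwise alike as far as the labels say, except for the animal numbers in the table. Some HM mice had a number beginning that no WT or HT mouse had. Some WT and HT mice had one that no HM mouse had. What these beginnings stand for is not given, so genotype cannot be fully told apart from it. *Slc6a20a* itself had a mean of 679.3 ± 70.1 normalized counts in WT, 345.0 ± 29.1 in HT mice and 64.5 ± 9.9 in HM mice (SD, n = 4 each), in the order of the labels. A normalized count is an estimated read count scaled by DESeq2 for library size, and these summed to between 33284951 and 33748623 per mouse.

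The olfactory bulb receives the axons of the sensory neurons of the nose in its glomeruli. There, mitral and tufted cells, the glutamatergic projection neurons, take up the signal and send it to the olfactory cortex, while granule and periglomerular interneurons, which are mostly GABAergic, shape their output. The bulb lies at the front end of the brain and is small in relation to it, so that transcripts made mainly in mitral and tufted cells are scarce in RNA from a whole brain.

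The members have different roles. *Eomes* (Tbr2) and *Tbx21* (T-bet) encode T-box transcription factors that mitral and tufted cells keep in the adult, and *Uncx* encodes a homeodomain transcription factor. *Cdhr1* encodes a cadherin-related membrane protein of mitral and tufted cells that photoreceptors also make. *Doc2g* encodes a member of the Doc2 family of C2-domain proteins, *Frmd7* a FERM-domain protein of the cell cortex, and *Lgr6* a receptor for R-spondins, which strengthen Wnt signalling. *Shisa3* encodes a protein that holds back Wnt and FGF receptors inside the cell, and *Ms4a15* a membrane protein of the MS4A family. *Omp* encodes olfactory marker protein, which is known from mature olfactory sensory neurons and not from projection neurons. Its place in the group is therefore not by cell type.

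The promoters of 3 members are shown because 2 of them, *Doc2g* and *Frmd7*, varied together most closely from mouse to mouse, and the third, *Uncx*, did not vary with the others. Sequences from 250 bases before to 50 bases after the transcription start were taken from RefSeq (GRCm38.p6), which held 9 of the 10 members. Capitals mark the T-box core GTGTGA or the homeodomain motif TAATTA on either strand. They come from chr19:4003135-4003434 on the plus strand, chrX:50942720-50943019 on the minus strand and chr5:139543648-139543947 on the plus strand, each printed 5′ to 3′ in the direction of transcription.
Doc2g: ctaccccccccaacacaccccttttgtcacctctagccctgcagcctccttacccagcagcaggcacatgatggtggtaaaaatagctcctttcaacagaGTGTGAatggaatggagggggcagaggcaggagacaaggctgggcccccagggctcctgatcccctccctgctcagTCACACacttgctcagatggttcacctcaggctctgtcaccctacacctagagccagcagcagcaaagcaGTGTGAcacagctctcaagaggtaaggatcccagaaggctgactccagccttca
Frmd7: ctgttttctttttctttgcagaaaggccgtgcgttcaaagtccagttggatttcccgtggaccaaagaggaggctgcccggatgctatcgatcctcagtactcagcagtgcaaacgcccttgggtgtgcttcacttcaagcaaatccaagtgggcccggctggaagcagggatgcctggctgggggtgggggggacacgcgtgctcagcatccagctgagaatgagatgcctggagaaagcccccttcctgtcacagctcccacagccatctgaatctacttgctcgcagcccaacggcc
Uncx: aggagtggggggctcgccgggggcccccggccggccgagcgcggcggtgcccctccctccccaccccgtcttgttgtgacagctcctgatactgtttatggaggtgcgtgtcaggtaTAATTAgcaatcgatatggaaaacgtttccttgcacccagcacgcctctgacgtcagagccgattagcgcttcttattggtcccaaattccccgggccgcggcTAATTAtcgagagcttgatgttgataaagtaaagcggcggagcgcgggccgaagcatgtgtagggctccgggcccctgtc
GTGTGA was present at 3 places in the *Doc2g* promoter and in none of the other 8 member promoters. Among all 32851 promoters of this length, 14.5% held at least 1 match and 0.152% held 3 or more. TAATTA was present at 2 places in the *Uncx* promoter and in no other member, against 5.29% of all promoters with at least 1 match. The longer T-box motif AGGTGTGA, which contains the core, had no match in any of the 9 members, against 1.28% of all promoters. The *Doc2g* window held 0 CG pairs and the *Shisa3* window 28, with a median of 7 over all promoters. Further motifs were looked at and are not described, and a match is a run of letters only.

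*Cdhr1* and *Doc2g* were the most abundant members. Their transcripts lie at chr14:37077857-37098347 and chr19:4003313-4007005 of GRCm38. Per kilobase of exon, WT mice had 80.2 ± 21 normalized counts of *Doc2g* and 74.9 ± 12.0 of *Cdhr1* (SD, n = 4), and the values of these genes overlapped. Every WT mouse had more *Cdhr1* than any WT mouse had *Lgr6*, at 21.6 ± 5.12 per kilobase. Below that came *Omp* (17.6 ± 7.79), *Frmd7* (14.5 ± 6.43), *Shisa3* (9.42 ± 1.84), *Uncx* (8.92 ± 0.628), *Eomes* (6.28 ± 2.57), *Ms4a15* (5.30 ± 4.13) and *Tbx21* (4.38 ± 3.02) normalized counts per kilobase. In this lower part of the order, each gene overlapped with the next.

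The T-box gene *Eomes* (chr9:118478212-118486132) had 40.1, 28.2, 20.2 and 15.8 normalized counts in WT replicates 1 to 4, 32.8, 17.5, 20.3 and 20.7 in HT replicates 1 to 4, and 83.5, 44.1, 59.5 and 86.5 in HM replicates 1 to 4. Every HM mouse was above every WT and HT mouse, and replicate 2 was the lowest of the HM mice. The log2 fold change, on the log2(normalized count + 1) scale used throughout, was 1.39 (SE 0.29) in HM relative to WT mice, 1.53 (SE 0.26) relative to HT mice and -0.14 (SE 0.30) in HT relative to WT mice. *Tbx21* (chr11:97098071-97115331) had 21.9, 9.5, 5.6 and 6.6 normalized counts in the WT mice, 8.4, 3.5, 6.0 and 7.4 in the HT mice and 29.6, 13.9, 19.2 and 21.2 in the HM mice. WT replicate 1 lay within the HM range, and every HM mouse was above every HT mouse. HM mice differed on the log2 scale by 1.02 (SE 0.40) from WT and by 1.59 (SE 0.34) from HT mice, and in HT against WT it fell below the minimum mean of 10 normalized counts.

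*Cdhr1* was at 369.5, 369.0, 272.3 and 287.5 normalized counts in the WT mice, 276.0, 276.0, 342.0 and 258.3 in the HT mice and 557.0, 391.1, 448.5 and 636.2 in HM mice. As for *Eomes*, the HM mice did not overlap with either other genotype. On the log2 scale, the difference was 0.63 (SE 0.15) from WT and 0.80 (SE 0.14) from HT mice. *Doc2g* measured 312.4, 283.0, 192.7 and 185.9 normalized counts in the WT mice, 264.3, 190.1, 207.6 and 169.4 in the HT mice and 460.4, 276.6, 442.9 and 482.3 in HM mice. Here HM replicate 2 fell just below WT replicates 1 and 2, and the other 3 HM mice were above all WT mice. HM mice differed by 0.77 (SE 0.20) from WT and by 0.98 (SE 0.17) from HT mice on the log2 scale.

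For *Frmd7* (chrX:50895180-50942710), the values were 47.4, 37.2, 20.4 and 18.8 normalized counts in the WT mice, 37.5, 29.0, 31.9 and 26.5 in the HT mice and 72.9, 41.9, 85.7 and 120.3 in HM mice. The HM mice were all above the HT mice, with 1.25 (SE 0.27) on the log2 scale, and HM replicate 2 lay below WT replicate 1, with 1.35 (SE 0.34) for HM against WT. *Lgr6* (chr1:134983301-135105276) had 169.2, 179.7, 101.1 and 141.8 normalized counts in the WT mice, 127.8, 124.3, 137.2 and 100.5 in the HT mice and 227.9, 160.2, 233.7 and 250.3 in HM mice. Against WT mice it had the smallest difference of the 9 members with a positive one, at 0.57 (SE 0.18) on the log2 scale, and against HT mice it had 0.82 (SE 0.15). *Shisa3* (chr5:67607882-67623552) had 55.2, 47.6, 34.5 and 41.9 normalized counts in the WT mice, 43.4, 33.2, 22.8 and 24.0 in the HT mice and 70.7, 42.0, 71.1 and 113.2 in the HM mice. HM replicate 2 was again the lowest of its genotype, below WT replicates 1 and 2 and HT replicate 1. *Shisa3* had a log2 fold change of 0.65 (SE 0.26) relative to WT and 1.20 (SE 0.29) relative to HT mice.

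*Ms4a15* (chr19:10978307-10993250) was found at 18.7, 11.5, 1.8 and 5.8 normalized counts in the WT mice, 7.4, 5.5, 2.1 and 0.0 in the HT mice and 51.4, 15, 49.1 and 89.6 in HM mice. WT replicate 1 was above HM replicate 2, and every HM mouse was above every HT mouse. The log2 fold changes of 2.43 (SE 0.60) relative to WT and 3.62 (SE 0.65) relative to HT mice rest on these low levels. Relative to HT mice it was 4.63 with a pseudocount of 0.1 in place of 1 and 3.00 without HT replicate 4. Like *Tbx21*, it did not reach the minimum in HT against WT. *Omp* (chr7:98143359-98145502), the gene of the sensory neurons, had 56.4, 43.4, 16.6 and 34.2 normalized counts in the WT mice, 16.9, 10.2, 17.0 and 13.9 in the HT mice and 87.5, 26.2, 57.6 and 89.2 in HM mice. It was the member with the lowest log2 fold change for HT against WT, at -1.22 (SE 0.34), with an overlap only between WT replicate 3 and HT mice, and HM mice differed by 0.75 (SE 0.40) from WT and 1.97 (SE 0.35) from HT mice. *Omp* lies within *Capn5* on the same strand, and *Capn5*, at 1741 to 1984 normalized counts, had a within-genotype correlation of 0.00 with it. For the other overlapping genes, the correlation was -0.16 between *Doc2g* and *Gm49405* and -0.03 between *Shisa3* and *Atp8a1*, while *Gm33460*, which overlaps *Eomes*, was not analysed here.

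*Uncx* (chr5:139543494-139548179) did not follow the other members. It had 28.3, 25.7, 27.5 and 30.4 normalized counts in the WT mice, 14.2, 16.3, 40.6 and 43.8 in the HT mice and 26.3, 34.6, 20.4 and 26.1 in HM mice. The HT mice fell into a low pair, replicates 1 and 2, and a high pair, replicates 3 and 4. The animal numbers in the table begin alike within each of these pairs, and what this stands for is not given in the sources used here. HM replicate 2 was the highest HM mouse. On the log2 scale, HM mice differed by -0.08 (SE 0.22) from WT and by 0.05 (SE 0.35) from HT mice.

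**Figure D1:**
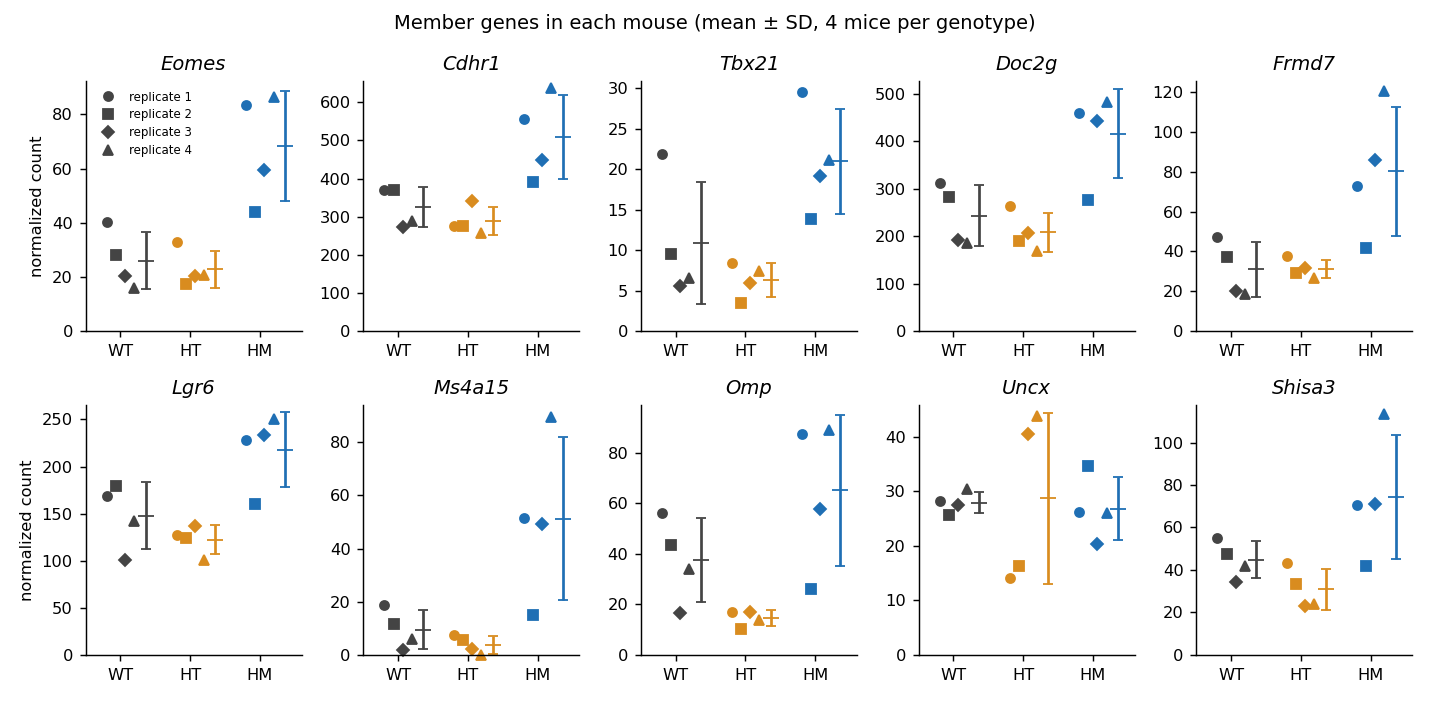
Normalized counts (y axis, from 0) of each member in WT, HT and HM mice (x axis), with 1 symbol per replicate number and bars for the mean ± SD of 4 mice. In 9 of the 10 panels the lowest HM point is replicate 2, and in the panel of *Uncx* it is the highest.

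In all, 9 of the 10 members had a positive log2 fold change for HM against WT, with a median of 0.76, beside a median of 0.00 over the 18004 genes tested, of which 49.8% were positive. Against HT, 10 members were positive with a median of 1.23, beside 49.5% of all genes. Of these, *Tbx21* and *Ms4a15* reached the minimum mean only through the HM mice, as *Ms4a15* did against WT, and the median against HT was 1.09 without them. All 4 HM mice exceeded all 4 WT mice for 2 members, *Eomes* and *Cdhr1*, where 2.41% of all genes tested had such a separation. Against HT, all HM values were above for 8 members, 6 of them without *Tbx21* and *Ms4a15*, where 1.24% of all genes did so. For HT against WT, 7 of the 8 members tested had a negative log2 fold change and 1 a positive one, with a median of -0.19, beside 50.0% of all genes with a negative one. No member was separated, beside 1.91% of all genes with every HT value below. The 3 comparisons share mice. Since the genotype difference chose the members, these counts and medians are a description and were not tested as a set. Gene by gene, 0 of the members tested passed an adjusted p of 0.05 with limma in any of the 3 comparisons. In RNA of a whole brain, fewer cells of a type and less RNA per cell cannot be told apart.

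Within genotypes, the same mice were high or low for most members. HM replicate 2 was the lowest HM mouse for 9 members, and HM replicate 4 was the highest for 8. Likewise, WT replicate 1 was the highest WT mouse for 8 members, WT replicate 3 the lowest for 6, and HT replicate 1 the highest HT mouse for 6. HM replicate 2 lay within the WT range for 7 members, whereas HM replicates 1, 3 and 4 were all above every WT mouse for 8. The share of all genes with this last separation was not computed, and setting aside the lowest HM mouse favours it. Without HM replicate 2, the median log2 fold change of the members for HM against WT was 1.04 in place of 0.76. Where 1 HM and 1 WT mouse shared the beginning of their animal numbers, 8 members were higher in the HM mouse of the first pair, with a median log2 difference of 0.41, and 10 in that of the second pair, with 1.05. For HM against HT, 10 of 10 members were higher in the HM mouse of the second beginning, with a median log2 difference of 1.66. For HT against WT, 0 of 10 members were higher in HT mice among those of the second beginning, with a median log2 difference of -0.46. Among those of another beginning, 5 of 10 were higher, with 0.04. HM replicates 1 and 2 had a beginning that no WT or HT mouse had, so these comparisons leave them out.

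Whether the members vary together without regard to genotype was examined on deviations from the genotype mean in the 12 mice, which the choice of the members did not use directly. Of the 45 pairs of members, 34 had a Pearson r of at least 0.5, which is 75.6%, beside 8.22% of all pairs of genes tested. The median r was 0.73 over these pairs and 0.00 over all pairs of genes. The members other than *Uncx* had an r of 0.47 to 0.93 with each other. *Doc2g* and *Frmd7* were the closest pair at 0.93, followed by *Eomes* and *Doc2g* at 0.91. The T-box genes *Eomes* and *Tbx21* had an r of 0.86, and *Omp* had an r of 0.69 to 0.86 with these members although it belongs to another cell type. *Uncx* had an r of -0.67 to 0.02 with the others.

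**Figure D2:**
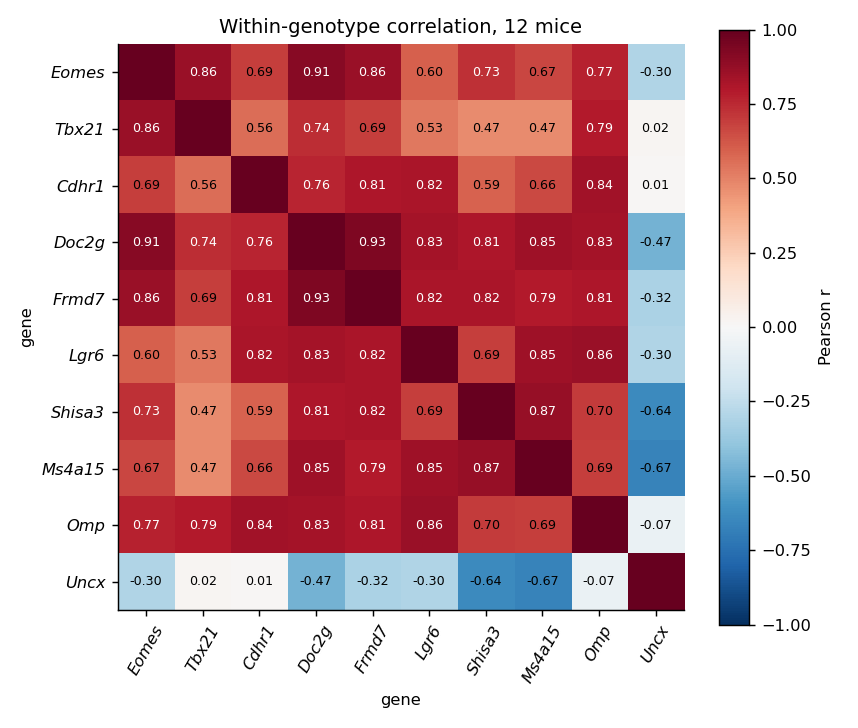
Pearson r between members (both axes list the 10 genes), on log2 deviations from the genotype mean in 12 mice, with the colour scale from -1 to 1. The 9 members other than *Uncx* form a block of values from 0.47 to 0.93, while the row of *Uncx* runs from -0.67 to 0.02.

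Set against the mean of the other 9 members, *Doc2g* had the highest r (0.94, Spearman's rho 0.97), and 0.0111% of the 17996 other genes tested were as close to the same mean. *Frmd7* (0.92), *Omp* (0.91), *Eomes* (0.86), *Lgr6* (0.86) and *Cdhr1* (0.83) followed. *Shisa3* (0.78), *Tbx21* (0.73) and *Ms4a15* (0.72) were lower, with 1.09% of other genes at or above the value of *Ms4a15*. For *Uncx* the r was -0.40, and 85.4% of other genes had a higher one. The median r over the pairs was 0.64 without HM replicate 2 and 0.55 without HM replicate 2 and WT replicate 3. These 2 mice had the mean deviations over the members that lay farthest from the median, at -0.62 and -0.54, with WT replicate 1 at 0.56. All r values across mice are given as descriptions, without a p, because the points share libraries and the members were chosen with results known.

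The genes outside the group with the closest pattern were ranked by r with the member score, which is the mean of the centred log2 values of the 10 members, over 12 mice. *Hacd1*, which encodes an enzyme of fatty acid elongation, had an r of 0.94 with means of 190.4 ± 22.8 normalized counts in WT, 180.2 ± 8.1 in HT mice and 183.2 ± 29.2 in HM mice. *Lgr5*, which encodes a receptor for R-spondins like *Lgr6*, also had an r of 0.94, and its means were 155.9 ± 49.4 in WT, 168.1 ± 27.7 in HT mice and 257.6 ± 58.2 in HM mice. For *Lgr5*, HM mice differed on the log2 scale by 0.75 (SE 0.21, limma with BH-adjusted p = 0.643) from WT and by 0.60 (SE 0.16, limma with BH-adjusted p = 0.959) from HT mice. The 10 next genes were *Commd3*, *Sdr39u1*, *Crhr1*, *Ntn3*, *Nudt10*, *Hist3h2ba*, *Mapkapk5*, *Vdac2*, *Fbxo6* and *Yipf2*, with an r of 0.87 to 0.92. None of these 12 genes passed an adjusted p of 0.05 in a comparison of genotypes with limma. Among the genes tested outside the group, 1450 of 17996 (8.06%) had an r of at least 0.5 and 55 (0.306%) had one of at least 0.8, which 6 of the 10 members reached against the mean of their fellows.

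Other genes of the bulb were then compared with the members, from marker lists of its other cells and of other regions. The list of bulb interneurons, with 14 genes such as *Sp8*, a zinc-finger transcription factor of periglomerular cells, and *Synpr*, which encodes synaptoporin, had a mean that varied with the member score (r = 0.84, rho = 0.87, and r = 0.82 without the 2 mice farthest from the median). Gene by gene, the median r was only 0.30, and 4 of the 14 had an r of at least 0.5. *Sp8* had an r of 0.82, with means of 95.8 ± 16.4 normalized counts in WT, 80.9 ± 19.4 in HT mice and 143.7 ± 29.8 in HM mice. *Synpr* had an r of 0.76, at 2991 ± 117.7, 2880 ± 109.2 and 3050 ± 318.4. At the low end were *Prokr2* (-0.26), a prokineticin receptor gene, and *Th* (-0.01), the gene of tyrosine hydroxylase. All 14 interneuron genes had a positive log2 fold change for HM against WT, with a median of 0.13, and no gene passed an adjusted p of 0.05 with limma, while 5 had an unadjusted p below 0.05, as 6.99% of all genes did. For HM against HT, all 14 were also positive (median 0.14), none passed, and 6 had an unadjusted p below 0.05, beside 3.74% of all genes. The summed level of the list ranged from 9877 to 10546 normalized counts in WT, from 10071 to 10519 in HT and from 10528 to 12055 in HM mice.

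*Dlx1*, *Gng4* and *Tshz1*, interneuron genes that the study itself picked from these libraries, had r values of 0.66, 0.66 and 0.77, and their mean had an r of 0.79. This is not independent evidence for a direction of the bulb genes. Their log2 fold changes for HM against WT were 0.33 (SE 0.06), 0.34 (SE 0.06) and 0.24 (SE 0.05). None of the 3 passed an adjusted p of 0.05 in any comparison of genotypes with limma. All 3 had an unadjusted p below 0.05 for HM against WT, as did 6.99% of all genes.

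The list of 12 other mitral and tufted cell genes had an r of 0.67 (rho 0.56), which was 0.54 without the 2 farthest mice. Gene by gene, the median r was only 0.19, and 3 of the 12 had an r of at least 0.5. *Nmb*, the gene of neuromedin B, had the highest r within it at 0.86, with 75.6, 61.9, 50.1 and 44.2 normalized counts in the WT mice, 64.5, 51.3, 57.2 and 54.8 in the HT mice and 68.2, 45.3, 85.5 and 83.9 in HM mice. As in most members, WT replicate 1 was the highest WT mouse and HM replicate 2 the lowest HM mouse. *Barhl2*, a homeobox gene, followed at 0.56. *Slc17a7* (-0.23), the gene of vesicular glutamate transporter 1, and *Ebf3* (-0.15) were at the low end, and *Slc17a7* is made by excitatory neurons of the whole forebrain at a mean of 32932 normalized counts in WT mice. The median log2 fold change of the list was 0.07 for HM against WT, with 9 of 12 genes positive and none called. An unadjusted p below 0.05 was found for 2 of them, beside 6.99% of all genes. For HM against HT the median was 0.00, with 6 of 12 positive, none called and 2 with such a p, beside 3.74% of all genes.

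Of 15 olfactory sensory neuron genes, 14 were measured and 13 passed the minimum, and the mean of these had an r of 0.24 (rho 0.05) with the member score. It was -0.33 without the 2 farthest mice. *Stoml3*, which encodes a stomatin-like protein of sensory cilia, had the highest r at 0.50, with 25.2, 16.2, 9.6 and 27.8 normalized counts in the WT mice, 4.6, 12.8, 19.4 and 8.2 in the HT mice and 38.0, 11.9, 27.8 and 40.7 in HM mice. *Cnga4* followed at 0.46, while *Ric8b* (-0.66) and *Gnal* (-0.48) were lowest, and the striatum also makes *Gnal*. One gene of the list failed the minimum mean of 10 normalized counts and was noticed after its values were seen: *S100a5*, which encodes a calcium-binding protein of sensory neurons. It had 16.0, 16.0, 2.2 and 2.8 in WT, 4.6, 1.2, 1.0 and 0.0 in HT mice and 20.6, 2.8, 21.7 and 28.3 in HM mice, so that HM replicate 2 was the low HM mouse as for *Omp*. For HM against WT, 4 of the 13 genes tested had a positive log2 fold change (median -0.02), and none was called with limma. An unadjusted p below 0.05 was found for 2, beside 6.99% of all genes.

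The ensheathing glia, which wrap the sensory axons, had an r of 0.50 over 7 genes, led by *Frzb* (0.64), a secreted Wnt inhibitor, and *Npy* (0.50), with *Sox10* (-0.20) and *Ngfr* (-0.04) lowest. The progenitor list, which matters because intermediate progenitors also make *Eomes*, had an r of 0.19, from *Igfbpl1* (0.64) and *Cd24a* (0.23) to *Sox11* (-0.53) and *Mki67* (-0.38). Unipolar brush cells of the cerebellum make *Eomes* too, and their 5 genes had an r of -0.20, with *Plcb4* at 0.51, *Lmx1a* at -0.32 and *Otx2* at -0.22. Photoreceptors make *Cdhr1*, and the 3 of their genes that passed the minimum, among them *Sag* (0.56) and *Nrl* (0.07), had an r of 0.01 together, with the 6 genes measured summing to 77.0 to 193.2 normalized counts. Lymphocytes make *Tbx21*, and their list was not analysed here. No gene of these lists was called in a comparison of genotypes with limma. For HM against WT, the number of genes with an unadjusted p below 0.05 was 2 of 7 for ensheathing glia and 0 in each of the progenitor, unipolar brush cell and photoreceptor lists. The share over all genes was 6.99%.

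For other regions and tissues, the mean of the cerebellar list had an r of 0.60, which was 0.17 without the 2 farthest mice, with *Pcp2* (r = 0.58) at 5.5 to 26.4 and *Fat2* (r = 0.55) at 3.3 to 28.7 normalized counts and the 9 genes measured summing to 4215 to 4858. *Zic2* (-0.37) and *Zic1* (-0.03) were at the low end of that list. Choroid plexus (0.17), blood (0.01), meninges (-0.14) and striatum (-0.20) had an r between -0.20 and 0.17, and the 2 pituitary genes measured, *Pomc* (-0.53) and *Tshb* (-0.37), had -0.69. No gene of these lists was called between genotypes with limma in all mice, but *Hbb-bt*, *Hbb-bs*, *Hba-a2* and *Hba-a1* were called in HM against HT without HM replicate 3. The 5 globin and *Alas2* genes of red blood cells had a median log2 fold change of -0.83 for HT against WT, and all 5 had an unadjusted p below 0.05, beside 6.42% of all genes. In HM against HT their median was 0.97, with 5 of 5 positive and 4 with an unadjusted p below 0.05, beside 3.74% of all genes. The choroid plexus list had a median of -0.39 for HM against WT, with 1 of 8 genes positive and 3 with such a p, beside 6.99% of all genes. The part of blood and choroid plexus in the differences of the members was not tested. These lists ran over values such as those of *Ppp1r1b* (0.44), *Drd1* (-0.63) and *Adora2a* (-0.31) in the striatum, and from *Folr1* (0.42) and *Aqp1* (0.40) to *Otx2* (-0.22) and *Kcnj13* (-0.04) in the choroid plexus. In the meninges they ran from *Col1a1* (0.21) and *Dcn* (0.06) to *Slc6a13* (-0.27) and *Foxc1* (-0.24), and in blood from *Hba-a1* (0.05) and *Hbb-bt* (0.04) to *Alas2* (-0.07) and *Hba-a2* (-0.01).

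**Figure D3:**
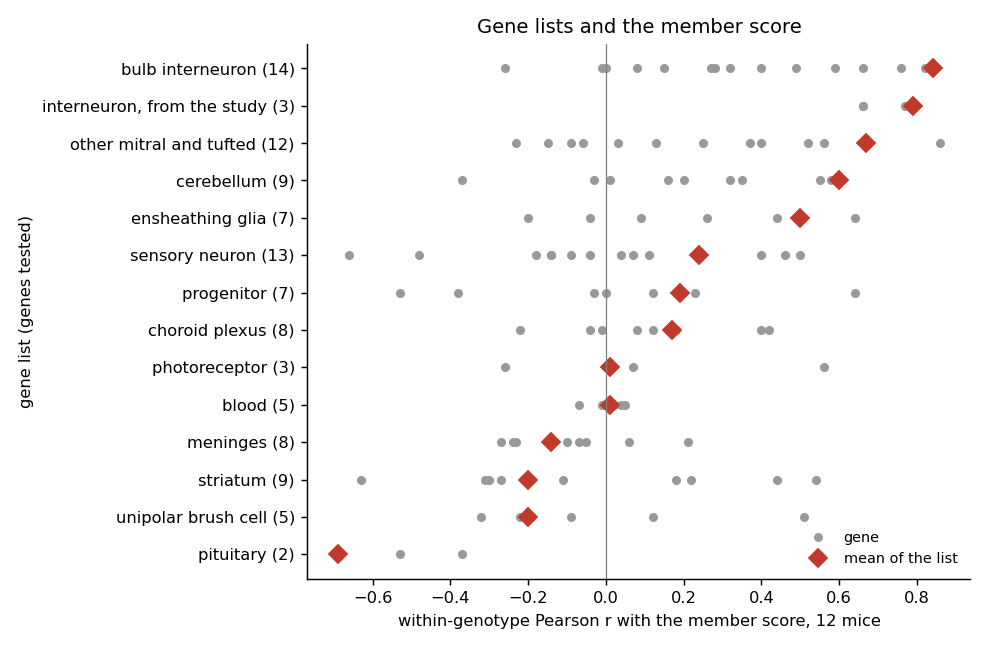
Within-genotype Pearson r with the member score over 12 mice (x axis) for each gene list (y axis, with the number of genes tested), where grey points are genes and red diamonds the mean of the list. The bulb interneuron list is at the top with 0.84, and blood, photoreceptor and choroid plexus lists lie between 0.01 and 0.17.

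The relation with the interneurons was tested gene by gene. Each gene was fitted on genotype and on an interneuron score, the mean centred log2 value of 12 interneuron genes without *Th* and *Trh*, so that the slope gives the log2 change of a gene per log2 unit of the score within genotypes. The slope was 3.77 (SE 0.86) for *Doc2g*, 5.98 (SE 1.43) for *Frmd7*, 5.04 (SE 1.28) for *Shisa3*, 2.62 (SE 0.69) for *Cdhr1* and 5.08 (SE 1.47) for *Eomes*. It was 11.83 (SE 3.55) for *Ms4a15*, 6.42 (SE 1.96) for *Omp*, 2.43 (SE 0.99) for *Lgr6*, 4.33 (SE 2.45) for *Tbx21* and -2.63 (SE 2.03) for *Uncx*. None of the 17994 genes tested passed an adjusted p of 0.05 with limma, with 812 at an unadjusted p below 0.05, and the adjusted p of the members was 0.912 to 0.996. Of the members, 9 had a positive slope, and 8 of them an unadjusted p below 0.05, beside 2.17% of all genes with a positive slope and such a p. By p, 7 members ranked among the first 100 genes, with *Doc2g* at 10, *Frmd7* at 15, *Shisa3* at 21, *Cdhr1* at 30, *Eomes* at 52, *Ms4a15* at 70 and *Omp* at 81. The member score and the interneuron score had an r of 0.81 (rho 0.80) within genotypes, and 0.82 without the 2 farthest mice. Taken by genotype, with 4 mice each, the r was 0.99 in HM, 0.72 in WT and 0.49 in HT mice.

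**Figure D4:**
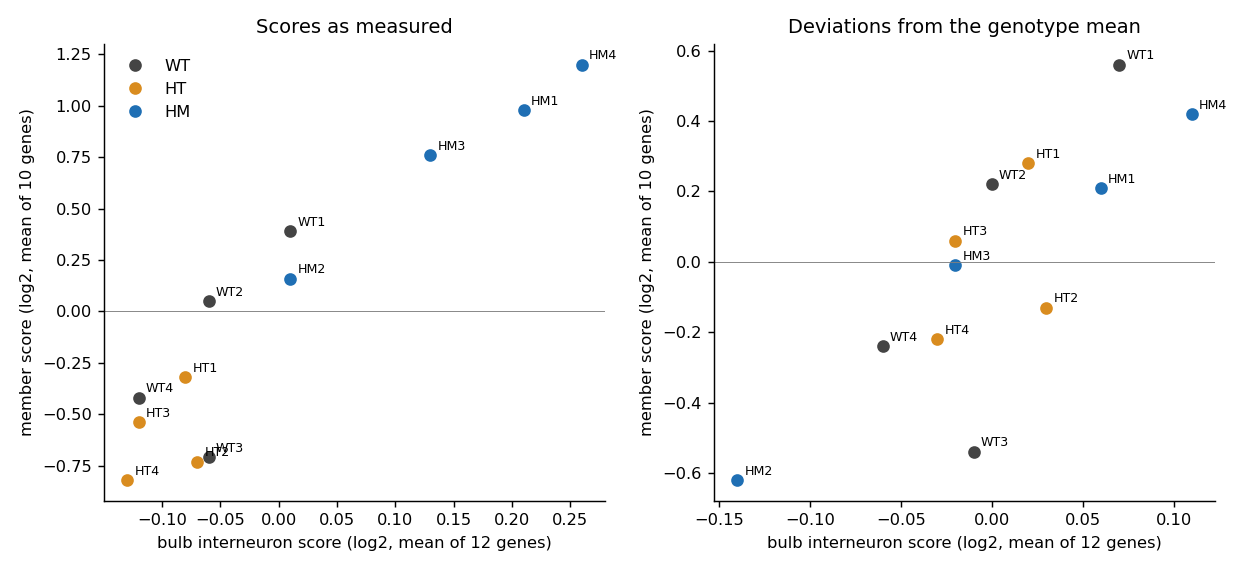
Member score (y axis, log2) against bulb interneuron score (x axis, log2) in each mouse, as measured (left) and as deviations from the genotype mean (right), with colours for genotypes and labels for replicates. HM replicate 2 lies at 0.01 and 0.16 in the left panel, beside WT replicate 1 at 0.01 and 0.39, and the other HM mice lie to the upper right.

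The interneuron score ranged from -0.12 to 0.01 in WT, from -0.13 to -0.07 in HT and from 0.01 to 0.26 in HM mice, so that HM and the other genotypes scarcely shared a range. In a fit of all 12 mice with this score beside genotype, the log2 fold changes for HM against WT were 0.33 (SE 0.38) for *Eomes*, 0.09 (SE 0.18) for *Cdhr1*, -0.01 (SE 0.22) for *Doc2g* and 0.10 (SE 0.37) for *Frmd7*. Without the score, the same fit gave 1.39 (SE 0.29), 0.63 (SE 0.14), 0.77 (SE 0.19) and 1.35 (SE 0.31). *Lgr6* (0.06, SE 0.26), *Ms4a15* (-0.04, SE 0.92), *Tbx21* (0.12, SE 0.63) and *Uncx* (0.47, SE 0.53) were also within 1 SE of 0 with the score. *Shisa3* (-0.40, SE 0.33) and *Omp* (-0.59, SE 0.51) were negative by more than 1 SE. The median over the members went from 0.76 to 0.07 relative to WT and from 1.23 to 0.22 relative to HT mice. For HM against WT, 9 of 10 members came closer to 0, beside 30.5% of all genes, whose median absolute log2 fold change went from 0.07 to 0.113. For HT against WT, the median absolute log2 fold change of the members was 0.23 without and 0.29 with the score, and *Omp* was at -0.93 (SE 0.32) with it. In that comparison 8 of 10 members came closer to 0, beside 48.6% of all genes, and their median went from -0.23 to -0.19. The score came from a list whose genes all had a positive log2 fold change for HM against WT, and the choice of the score changed the outcome: with the score of the 12 other mitral and tufted genes, the median of the members was 0.48 relative to WT and 1.22 relative to HT mice. Without HM replicate 2, the log2 fold change of *Omp* for HM against HT with the interneuron score was 1.02 in place of 0.34, and that of *Eomes* was -0.28 in place of 0.24. The amount of bulb in each sample is not given in the sources used here, and its part in the genotype differences was not tested.

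**Figure D5:**
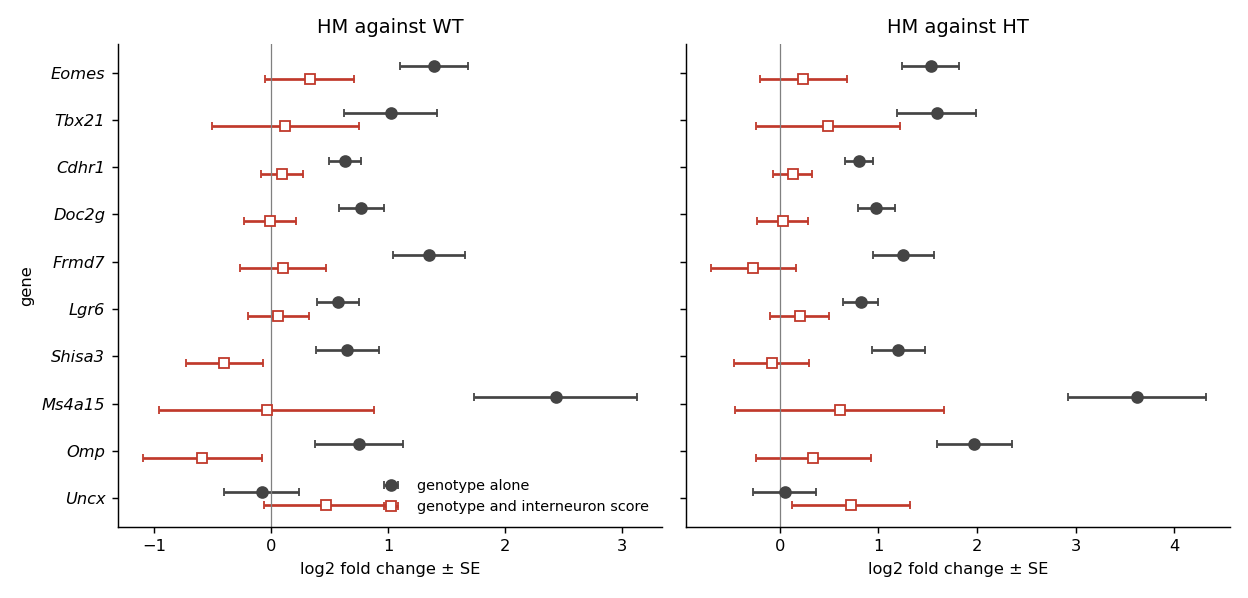
Log2 fold change ± SE (x axis) of each member (y axis) for HM against WT (left) and HM against HT (right), in fits of 12 mice with genotype alone (filled circles) and with genotype and the interneuron score (open squares). For HM against WT the median of the members is 0.76 with genotype alone and 0.07 with the score.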

How the data were processed

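The deposited table held gene-level normalized counts from whole-brain RNA of 12 mice, 1 column per mouse. Per the labels and methods, the authors prepared poly(A) libraries with a kit that does not mark strand, sequenced paired reads, estimated transcript abundance with Salmon 1.1.0 and normalized it with DESeq2 1.30.1, on GRCm38. These deposited values are a signal scaled by size factors, not counts, and they were not whole multiples of 1 step per library, so no count model was used. Gene identifiers were matched to GENCODE M21 (19758 of 19775). Genotypes were compared on log2(normalized count + 1) with limma 3.58.1 (R 4.3.3) with a mean-variance trend, genes with a mean of at least 10 over the mice compared, and Benjamini-Hochberg adjustment at 0.05. Depth before scaling is unknown. Replicates were separate mice.

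The members and gene lists were chosen with earlier results of these data known. Named genes were all members, the 2 highest and 2 lowest genes of each list by within-genotype r, any list gene called, the 12 closest other genes and Slc6a20a, and a few list genes under this rule are not reported here. If strand was not kept, *Eomes*, *Doc2g* and *Shisa3* may share reads with overlapping genes. The fits were tested on simulated data. Alternatives were other pseudocounts, filters, variance priors, scores, a replicate block and leaving out each mouse.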

Additional observations from a re-analysis of the deposited data

How the results depend on the processing

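In HT against WT 1 gene was called, in HM against WT 2 and in HM against HT 1, with *Slc6a20a* among them in each. Leaving out 1 mouse gave 1 to 5, 2 to 3 and 1 to 7 genes in this order. The 7 genes without HM replicate 2 were *Slc6a20a* and the members *Cdhr1*, *Doc2g*, *Eomes*, *Frmd7*, *Lgr6* and *Omp*. With all mice, 0 members were called in any comparison of genotypes. The calls of members are no independent evidence, because the members were chosen with the genotype difference known. The mouse left out was also the lowest HM mouse for 9 members. Without HM replicate 3 there were also 7, none of them a member, with the globin genes *Hbb-bt*, *Hbb-bs*, *Hba-a2* and *Hba-a1* among them. The variance prior without a trend gave 0 genes for HT against WT and 1 for HM against WT, and no filter on low values gave 2 for HM against HT. Same-numbered mice had an r of -0.07 to 0.09 between their deviations, which shows no pairing by number but cannot exclude one. The replicate block gave 1 gene in each comparison, where HM against WT had 2. With the interneuron score in the model, leaving out 1 mouse gave 0 to 2, 1 to 5 and 0 to 3 genes, where each comparison had 1.

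The slope on the interneuron score had 0 called genes under all alternatives, with 6 to 9 members at a positive slope and an unadjusted p below 0.05. The slope of *Uncx* reversed to 0.78 with the score of the other mitral and tufted genes. The median r among members was 0.69 with a pseudocount of 0.1, 0.71 as Spearman's rho, 0.64 to 0.80 without 1 mouse, and 0.55 without the 2 farthest mice, an alternative chosen after seeing the data, as were the fits without *Uncx* or 1 genotype and the block with the score. Of the member fold changes under alternatives, 778 stayed within the SD between mice of that gene within genotypes and 30 did not, of which 25 used the other mitral and tufted score. The cause was not tested. Precision was limited by 4 mice per genotype and by low levels, with WT means of 10.9 normalized counts for *Tbx21* and 9.4 for *Ms4a15*.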
